A study of Homo sapiens with 16 samples.

Results

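C5ar1, C5ar2 and C3ar1 encode the receptors for the complement anaphylatoxins and were followed as 3 of the 32285 genes counted in these single-cell libraries. They were chosen by name, and all 3 had unique molecular identifier (UMI) counts in every experiment. Female FVB mice, 6 weeks old at purchase, carried chunks of 2 mammary tumor models, T22 (LPA1-T22) and T127 (LPA1-T127), in the mammary fat pad, either 1 model alone or both on opposite sides of the same animal. Both models descend from transgenic mice with the LPA1 receptor in the mammary epithelium, and each is a single transplanted tumor line. The animals received vehicle or olaparib, an inhibitor of poly(ADP-ribose) polymerase (PARP), at 50 mg/kg by gavage each day, for 20 days (long-term, 8 pools holding cells of both models) or for 4 or 8 days (short-term, 4 pools of T22 and 4 of T127). Dead cells were removed before capture with 10x 3′ chemistry. Every pool mixed cells of vehicle- and olaparib-treated tumors, the tumor of each cell was not used here, and nothing in the labels says which tumors a pool held, so treatments were not compared and the spread between pools may be technical.

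C3ar1 is the receptor for C3a, the small fragment released when C3 is cleaved. C5ar1 is the main signalling receptor for C5a, released from C5, and couples to inhibitory G proteins that drive chemotaxis and activation of myeloid cells. C5ar2 binds the same ligand but does not couple to G proteins and is often described as a scavenging or modulating receptor. In tumors these receptors are known chiefly from macrophages, monocytes and neutrophils.

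Across the 16 pools there were 53946 deposited cells and between 34755906 and 55600377 UMIs per pool. The long-term pools shared cell barcodes: 3939 between pools 1 and 2, 987 between pools 1 and 3, 1082 between pools 2 and 3, and at most 8 between any of the 25 other pairs. The deepest copy of each shared barcode was kept, which left 25723 of 30845 long-term cells beside 15094 T22 and 8007 T127 cells. The deposited annotation named 22 labels, 7 of them named after monocytes or macrophages (Macro-M1, Macro-M2, Macro-MKI67, Macro-others, CD14-PF4, CD14-IL1B and CD16-CDKN1C), and labels with at least 50 cells in an experiment were described (21 long-term, 17 in T22, 14 in T127). Macro-M1, a macrophage label, held 3 cells in T127 and was not described there.

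Levels are the UMIs of a gene per 1000000 UMIs of the cells in a label (CPM), with exact 95% Poisson intervals that cover counting error only. Because cells of a pool are not replicates, no p-value was computed, and a difference was described by its size, its interval and whether the ranges of the pools overlapped.

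All 3 receptors were almost confined to the 7 monocyte and macrophage labels. Those labels held 46.8% of all long-term UMIs, and they held 98.9% of the C5ar1 UMIs, 98.3% of the C5ar2 UMIs and 99.2% of the C3ar1 UMIs. In T127, where they held only 12.6% of all UMIs, they still held 98.4% of C5ar1, 96.8% of C5ar2 and 98.7% of C3ar1. In T22 the corresponding shares were 99.1%, 98.8% and 99.2%, against 39.5% of all UMIs.

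In the labels of other cell types the receptors were low. The 14 other long-term labels lay between 0.923 and 6.46 CPM for C5ar1, and the 4 malignant labels did not exceed 2.28 CPM. The fibroblast label i_CAF had 5.19 CPM of C5ar1 (3.91 to 6.76) from 55 UMIs and 7.46 CPM of C3ar1 (5.90 to 9.30) from 79 UMIs, above the 0.283 CPM that 3 UMIs give there. For C3ar1 the highest other label was pDC, plasmacytoid dendritic cells, with 19.4 CPM (11.5 to 30.6) from 18 UMIs. The T22 pDC label had only 35 cells and was not described, but held 12 C5ar1 UMIs (35.7 CPM, 18.5 to 62.4) and 23 C3ar1 UMIs (68.5 CPM). In T127 the highest other label was i_CAF, with 6.75 CPM of C5ar1 (3.59 to 11.5) and 8.30 CPM of C3ar1 (4.75 to 13.5). The long-term pDC and T127 i_CAF pools spanned a wide range, from 0 to 77.5 CPM for C3ar1 in pDC and from 0 to 21.1 CPM in i_CAF.

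Macrophage markers were also counted in these labels. The summed level of 6 macrophage markers (Adgre1, Csf1r, Itgam, Cd14, Cd68, Fcgr1) in long-term i_CAF cells was 3.66% of that in Macro-M2 cells (pools 72.9 to 250.8 CPM against 3530 to 4472 CPM), and all 6 had UMIs. In pDC it was 17.0% (pools 529 to 841 CPM), of which Cd68, a lysosomal protein that is not limited to macrophages, gave 553 of 669.6 CPM. In T127 i_CAF cells the same sum was 2.22% (pools 8.55 to 268 CPM). The part of macrophage RNA in the receptor UMIs of these labels was not tested.

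**Figure D1:**
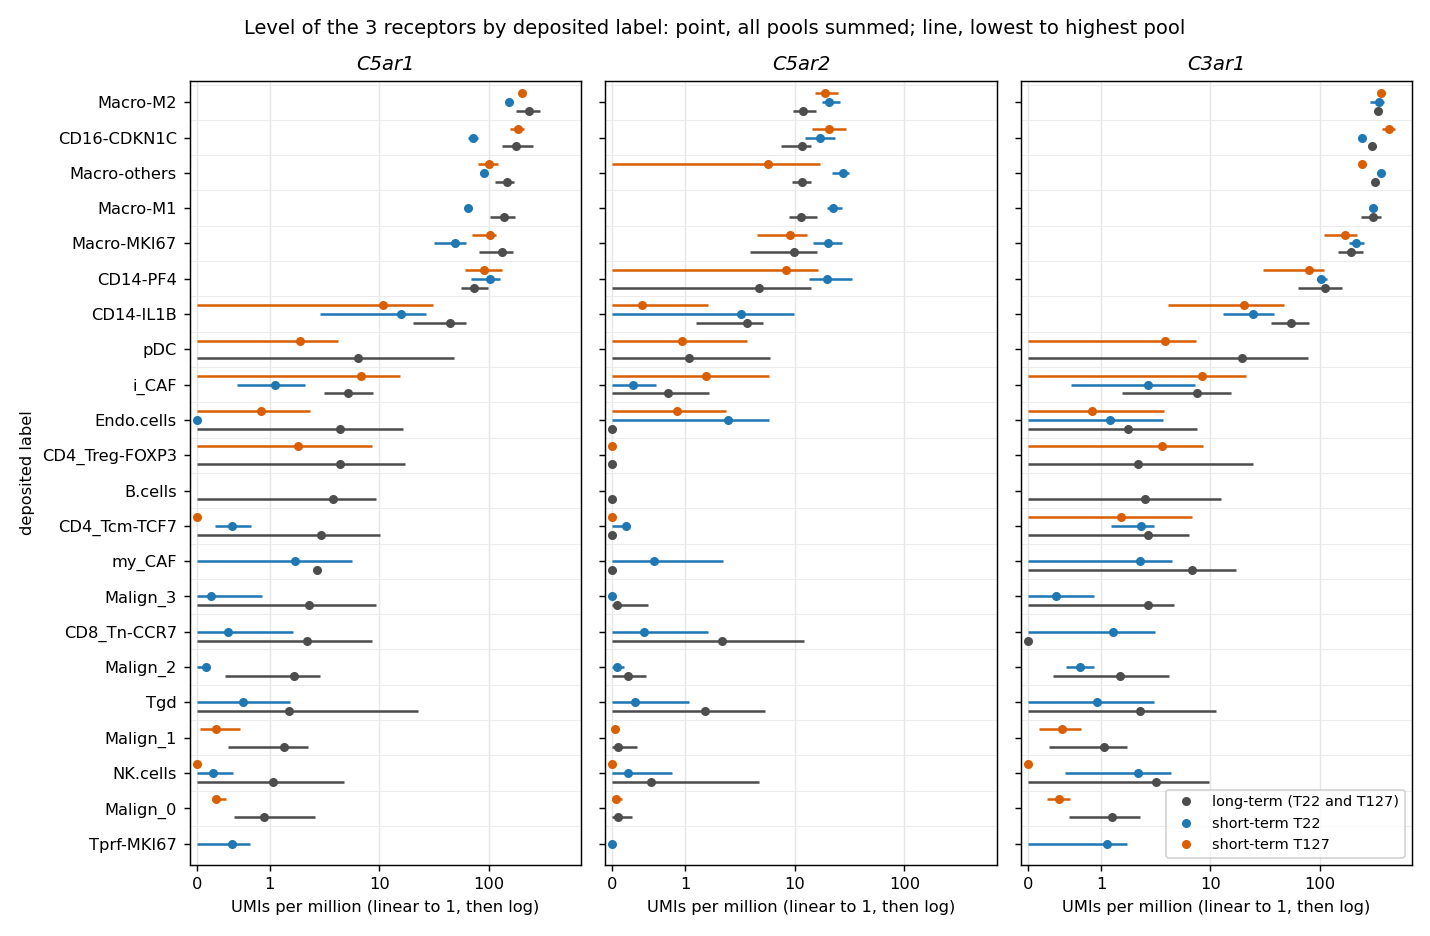
Level of C5ar1, C5ar2 and C3ar1 (CPM, horizontal axis linear to 1 and logarithmic above) in each deposited label with 50 or more cells, ordered by long-term C5ar1. Points are all pools summed and lines run from the lowest to the highest pool with 10 or more cells. The 7 monocyte and macrophage labels stand at the top, from 43.8 to 234 CPM of long-term C5ar1, and the other labels lie at 6.46 CPM or below.

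C5ar1 was highest in Macro-M2 cells in all 3 experiments. Its level there was 234 CPM in the long-term experiment (229 to 239, pools 177 to 296), 153 CPM in T22 (145 to 161, pools 144 to 159.8) and 201 CPM in T127 (194 to 209, pools 196 to 206). Macro-M2 is the label in which Mrc1, the mannose receptor used as a marker of alternatively activated macrophages, was highest among the described monocyte and macrophage labels of each experiment.

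Below Macro-M2 the order of C5ar1 differed between experiments. In the long-term pools CD16-CDKN1C cells followed with 176 CPM (172 to 181), then Macro-others with 146, Macro-M1 with 138 and the cycling label Macro-MKI67 with 133 CPM. The pools of each label overlapped with those of the next throughout this order, Macro-M2 and CD16-CDKN1C included, and Macro-M1 exceeded Macro-MKI67 by 1.04-fold (0.96 to 1.13). CD14-PF4 (74.1 CPM) and CD14-IL1B (43.8 CPM) closed the order.

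In T22 CD14-PF4 came second by its summed level, with 103 CPM (81.5 to 129) from 78 UMIs in 66 cells. Its pools did not overlap with those of Macro-M2, but did with those of Macro-others, which it exceeded by 1.15-fold (0.900 to 1.44). Macro-others (89.96 CPM), CD16-CDKN1C (72.2 CPM), Macro-M1 (64.9 CPM) and Macro-MKI67 (48.9 CPM) followed. In T127 CD16-CDKN1C cells reached 187 CPM (168 to 207) and overlapped with Macro-M2. The next 3 labels, Macro-MKI67, Macro-others and CD14-PF4, lay between 90.6 and 103 CPM with overlapping pools.

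C3ar1 was close in 4 of the macrophage labels in the long-term pools. Macro-M2 had 338 CPM (332 to 343), Macro-others 321, Macro-M1 303 and CD16-CDKN1C 297 CPM, and the pools of each overlapped with those of the next. A gap came only at Macro-MKI67, with 192 CPM (181 to 202), whose pools lay wholly below those of CD16-CDKN1C by 1.55-fold (1.46 to 1.64). The labels CD14-PF4 (112 CPM) and CD14-IL1B (54.4 CPM) were lowest.

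The label with most C3ar1 was not the same in each experiment. It was Macro-others in T22, with 358 CPM (348 to 368), though its pools overlapped with those of Macro-M2 (345 CPM). In T127 it was CD16-CDKN1C, with 426 CPM (398 to 456), overlapping with Macro-M2 (364 CPM).

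C5ar2 had the fewest UMIs of the 3 genes. In the long-term pools 5 labels lay between 9.88 and 11.9 CPM, each overlapping with the next, so that no macrophage label stood out. In T22 the lowest label was CD14-IL1B with 3.22 CPM, and the 6 others ran from 16.8 CPM in CD16-CDKN1C to 27.8 CPM in Macro-others (25.1 to 30.6). Without pool 3 the T22 CD14-IL1B level was 0.960 CPM. In T127 CD16-CDKN1C (20.5 CPM) and Macro-M2 (18.7 CPM) stood above Macro-MKI67 (8.96 CPM), and the pools of Macro-M2 and Macro-MKI67 did not overlap.

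CD14-IL1B was the lowest of the monocyte and macrophage labels for every receptor in every experiment. In T22 it had 15.7 CPM of C5ar1 and 24.3 CPM of C3ar1, and in T127 it had 10.9 and 20.1 CPM. The T127 values rest largely on pool 1, with 30.7 and 46.9 CPM, and without it they were 4.29 and 11.3 CPM. The label held many cells with genes of conventional dendritic cells (Xcr1, Clec9a, Flt3, Fscn1, Ccr7, Zbtb46): 108 of its 143 cells in T22, 72 of 144 in T127 and 101 of 446 long-term had UMIs of 3 or more of these 6 genes.

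The receptors were low in the CD14-IL1B cells with dendritic genes. In T22 those 108 cells had 1 C5ar1 UMI, a level of 0.450 CPM (0.0114 to 2.51), and the other 35 cells of the label had 74.7 CPM (54.1 to 101). In T127 the 72 cells had no UMI of C5ar1 or C3ar1, with an upper bound of 2.92 CPM, while the other 72 cells had 22.1 CPM of C5ar1 and 41.0 CPM of C3ar1. Long-term, the 101 cells had 7.81 CPM of C5ar1 and 12.1 CPM of C3ar1, and the remaining 345 cells 54.3 and 66.7 CPM.

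A split in the same direction was seen in T22 Macro-M1, in which 91 of 1203 cells had 3 or more dendritic genes. These 91 cells had 0.678 CPM of C5ar1 and 3.39 CPM of C3ar1, and the other 1112 cells had 70.8 and 331 CPM. In T22 Macro-others, 9 such cells had 69.8 CPM of C3ar1 (31.9 to 132) against 361 CPM in the others, and in long-term Macro-others 26 had 35.8 CPM against 323 CPM. In long-term CD14-PF4, 8 had 46.2 CPM (9.54 to 135) against 116 CPM (96.1 to 140), with intervals that overlapped. The grouping used genes other than the receptors, but all values came from the same cells.

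The names of several labels were checked against their genes. In CD14-IL1B the 6 dendritic genes summed to 485 CPM long-term, 1276 CPM in T22 and 1009 CPM in T127, above the 234, 308 and 235 CPM of 4 classical monocyte genes (Ly6c2, Ccr2, Plac8, Vcan), so its name is used only as deposited. Mki67, a marker of cycling cells, was highest in Macro-MKI67 in each experiment. Cdkn1c lay at 6.88 CPM or below in all of the labels named here, so CD16-CDKN1C is used only as the deposited name. Pf4 was lower in CD14-PF4 than in Macro-M2 in each experiment (416 against 1139 CPM long-term). CD14-PF4 cells also carried neutrophil markers (S100a8, S100a9, Csf3r, Cxcr2, Mmp8, Ly6g, Retnlg), whose sum in T22 was 4022 CPM and ranged from 149 to 10576 CPM over the pools, and Ly6g had no UMI there in the long-term and T127 cells.

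To compare shares of positive cells across depths, each cell was sampled down to 3000 UMIs, and cells below that depth did not enter. In long-term Macro-M2 cells C5ar1 was then detected in 42.3% of 3510 cells (40.6 to 43.9%), C3ar1 in 56.6% and C5ar2 in 3.28%. Without thinning, at a median of 11168 UMIs per cell, the shares were 71.8%, 84.4% and 11.5%. In the T, NK and B cell labels, which should lack these receptors, C5ar1 was detected in 0.873% of 1145 thinned long-term cells (0.420 to 1.60%; the median before thinning was 3200 UMIs over all 2148 cells of these labels, shallower ones included) and C3ar1 in 0.437%.

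In T22 the thinned Macro-M2 share was 30.0% for C5ar1 (26.6 to 33.6%), 54.8% for C3ar1 and 5.07% for C5ar2. In T127 it was 41.8% for C5ar1, 58.5% for C3ar1 and 6.90% for C5ar2. The background in T, NK and B labels was at most 0.296% for C5ar1 and 0.592% for C3ar1 in these experiments. Of Macro-M2 cells, 71.1% long-term, 66.3% in T22 and 71.3% in T127 had at least 1 of C5ar1 and C3ar1.

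The short-term experiments allowed the 2 tumor models to be compared within a label. The model and its libraries cannot be told apart, since each pool held a single model. Among all genes with 50 or more UMIs, T127 was at least 2-fold higher than T22 for 12.5% in CD16-CDKN1C, 7.52% in Macro-MKI67, 8.42% in Macro-M2, 9.84% in Macro-others, 7.05% in CD14-PF4 and 7.73% in CD14-IL1B. It was at least 2-fold lower for 9.55%, 7.22%, 7.59%, 8.66%, 7.35% and 3.68%, in the same order. Against that background, 1 of 3 receptors was 2-fold higher in CD16-CDKN1C and 1 of 3 in Macro-MKI67, C5ar1 in both. In Macro-MKI67 and in Macro-others 1 of 3 was 2-fold lower, C5ar2 in both, and in Macro-M2 0 of 3 passed 2-fold in either direction. In CD14-PF4 and CD14-IL1B 0 of the 2 receptors with enough UMIs did, but these counts turned with the cells included. Without cells that had 3 or more dendritic genes, the CD14-IL1B ratios of T127 to T22 were 0.296 for C5ar1 and 0.407 for C3ar1, and without cells that had 3 or more classical monocyte genes the CD14-PF4 ratio of C3ar1 was 0.315. Both Macro-MKI67 counts also lay near the limit. With 1 pool left out, its C5ar1 ratio of 2.10 fell to 1.88 at the lowest, and its C5ar2 ratio of 0.449 rose to 0.507 at the highest. Without mitochondrial and ribosomal protein genes in the denominator its C5ar1 ratio was 1.99.

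C5ar1 was higher in T127 in 3 labels whose pools did not overlap. In CD16-CDKN1C cells the T22 pools had 65.5, 65.3, 79.9 and 76.7 CPM and the T127 pools 208, 197, 184 and 155 CPM, a ratio of 2.59 (2.30 to 2.91). In Macro-MKI67 cells the T22 pools had 31.4, 62.2, 46.1 and 56.1 CPM and the T127 pools 71.1, 113, 109 and 117 CPM, a ratio of 2.10 (1.80 to 2.46). In Macro-M2 the T22 pools lay at 150.2, 144, 159.7 and 159.8 CPM and the T127 pools at 196, 206, 203 and 199 CPM. The ratio was 1.31 (1.2 to 1.4). The share of all genes whose pools did not overlap was not counted, so the lack of overlap alone does not set C5ar1 apart. Ccr1 in Macro-M2, with a ratio of 1.32, had no overlap either.

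The pools of the other labels overlapped. Macro-others had a C5ar1 ratio of 1.11 (0.971 to 1.27), which was 1.39 in cells thinned to 3000 UMIs (83 and 325 UMIs), near the thinned Macro-M2 ratio of 1.41. The ratios of the remaining labels were 0.879 in CD14-PF4 (0.624 to 1.24) and 0.692 in CD14-IL1B (0.412 to 1.14). Without pool 1 of T127 the CD14-IL1B ratio was 0.273.

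The cells of the 2 models also differed in monocyte genes, and those of CD16-CDKN1C in depth. In CD16-CDKN1C the median was 2407 UMIs per cell in T22 and 4922 in T127, and after thinning C5ar1 was detected in 15.2% of 1643 T22 cells and 36.7% of 283 T127 cells. The C5ar1 ratio was 2.24 in cells of 3000 or more UMIs, 2.35 in cells of 1000 or more genes and 2.69 in thinned cells. Without mitochondrial and ribosomal protein genes in the denominator it was 2.32. The median ratio over all genes counted in this label was 1.16. The 4 classical monocyte genes summed to 379.8 CPM in T22 (pools 347 to 443) and 2566 CPM in T127 (pools 2257 to 2941). With cells that had 3 or more of these 4 genes left out, the C5ar1 ratio was 2.70. In Macro-M2 the same sum was 636 CPM in T22 (pools 531 to 716) and 1587 CPM in T127 (pools 1420 to 1703), and the C5ar1 ratio without such cells was 1.249. Mrc1 was also higher in T127 in each of the 4 labels given here. It had 1047 against 186 CPM in Macro-M2, 802 against 67.2 CPM in CD16-CDKN1C, 616 against 121 CPM in Macro-MKI67 and 695 against 44.5 CPM in Macro-others. Pf4 was 1942 against 135 CPM, 1220 against 126 CPM, 679 against 75.5 CPM and 242 against 92.1 CPM in the same order. CD14-PF4 and CD14-IL1B, whose C5ar1 ratios were below 1, are not among these 4 labels. The part of these differences between the cells in the receptor ratios was not tested.

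C5ar2 went the other way in 2 labels. In Macro-others it was detected at 22, 28.8, 28.8 and 31.0 CPM in the T22 pools and at 1.62, 16.9, 6.28 and 0 CPM in the T127 pools. T22 was 4.84-fold higher (2.90 to 8.73), with 394 UMIs against 15. Pool 2 of T127 was the highest of its 4, and without it the T127 level was 2.88 CPM and the ratio of T127 to T22 went from 0.207 to 0.104. In Macro-MKI67 T22 was 2.23-fold higher (1.53 to 3.31), from 105 and 39 UMIs, with pools of 14.6 to 26.9 CPM above pools of 4.47 to 12.9 CPM.

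That second difference did not hold in cells thinned to 3000 UMIs. There the Macro-MKI67 ratio of T127 to T22 was 1.11, from 10 and 15 UMIs, whereas Macro-others stayed at 0.293, from 6 and 112. In Macro-M2 C5ar2 had a ratio of 0.906 (0.748 to 1.10) with overlapping pools before thinning. In thinned cells it was 1.296, from 84 UMIs in T127 and 37 in T22.

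C3ar1 split by label. In CD16-CDKN1C cells it was 1.76-fold higher in T127 (1.64 to 1.90), with T22 pools of 227, 234, 250.4 and 251 CPM below T127 pools of 414, 371, 480.3 and 415 CPM. In Macro-others it was 1.47-fold higher in T22 (1.35 to 1.59), with T22 pools of 329, 368, 387 and 347 CPM above T127 pools of 237, 263, 234 and 249 CPM. In Macro-M2, with a ratio of 1.06 (1.01 to 1.10), and in Macro-MKI67, with 0.791 (0.720 to 0.869), the pools overlapped. The Macro-others cells of T127 included 20 of 213 with 3 or more dendritic genes, and without them and their counterparts in T22 the ratio of T127 to T22 was 0.735, against 0.682 with them. In cells thinned to 3000 UMIs it was 0.863.

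**Figure D2:**
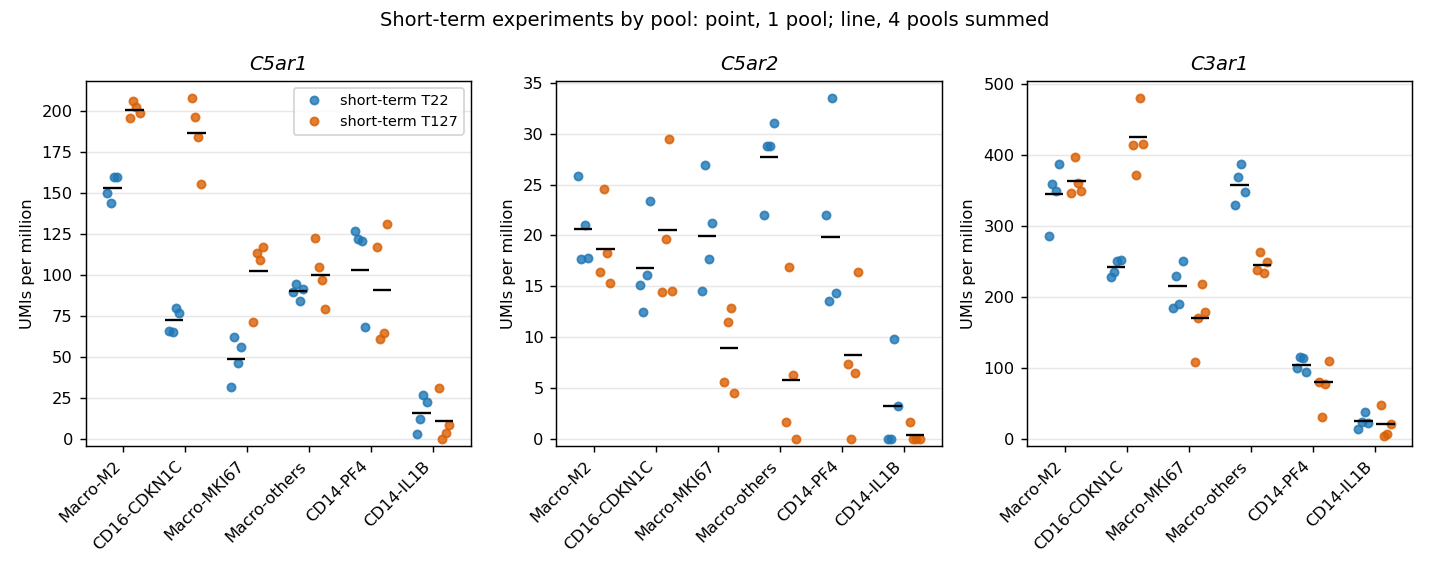
Level of the 3 receptors (CPM) in the short-term pools of T22 (blue) and T127 (orange), for 6 labels. Each point is 1 pool and each black line the 4 pools summed. C5ar1 in CD16-CDKN1C lies at 65.3 to 79.9 in T22 and 155 to 208 in T127, and C5ar2 in Macro-others at 22 to 31.0 in T22 and 0 to 16.9 in T127.

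The balance of C5ar1 to C3ar1 therefore differed between models and labels. In T22, C5ar1 had 21.3 UMIs per 100 C3ar1 UMIs in Macro-M1, 22.8 in Macro-MKI67, 25.1 in Macro-others and 29.9 in CD16-CDKN1C, but 44.5 in Macro-M2 (41.7 to 47.4) and 100 in CD14-PF4 (72.1 to 139). The pools of Macro-M2 (40.1 to 52.5) lay above those of these first 4 labels (17.0 to 31.9 in all). In T127 the same ratio was 55.3 in Macro-M2, 60.5 in Macro-MKI67, 43.9 in CD16-CDKN1C and 41.0 in Macro-others, so that Macro-M2 did not stand above the cycling label. CD14-PF4 had 114 in T127 (78.7 to 165), so that its value was high in both short-term experiments. It was not long-term, with 66.1 (49.0 to 88.7) beside 69.3 in Macro-M2 and 80.6 in CD14-IL1B. CD14-IL1B had 64.7 in T22 (43.2 to 95.9) and 54.0 in T127 (32.5 to 87.9), with wide intervals.

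C5ar2 had 5.09 UMIs per 100 C5ar1 UMIs in long-term Macro-M2 cells (4.64 to 5.58), 13.5 in T22 (11.5 to 15.7) and 9.30 in T127 (8.17 to 10.6). Its highest value was 40.9 in T22 Macro-MKI67 cells (32.2 to 51.5). In T127 Macro-MKI67 cells it was 8.72 (6.12 to 12.1).

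The 8 long-term pools did not have the same C5ar1. In Macro-M2 the values in pools 1 to 8 were 296, 241, 263, 281, 177, 207, 188 and 195 CPM, so that each of pools 1 to 4 was above each of pools 5 to 8. The same 4 pools were highest in CD16-CDKN1C (204 to 252 CPM, against 131 to 147 in pools 5 to 8), Macro-others (159.5 to 172 against 115 to 129.6) and Macro-M1 (146 to 173 against 103 to 138). This held in 4 of the 6 monocyte and macrophage labels with 10 or more cells in each pool. How many of all genes split the pools in this way was not counted, so the split is not shown to be particular to C5ar1.

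The other receptors did not follow this order. C3ar1 in Macro-M2 was 352, 323, 342, 349, 321, 349, 321 and 332 CPM in pools 1 to 8, and pools 1 to 4 were highest in 0 of 6 labels for C3ar1 and 0 of 6 for C5ar2. C5ar2 in Macro-M2 was 9.91, 10.9, 10.6, 9.63, 13.6, 11.5, 15.5 and 15.2 CPM, highest in pools 5 to 8. The highest pool exceeded the lowest by 1.67-fold for C5ar1, 1.61-fold for C5ar2 and 1.10-fold for C3ar1, and of 4391 genes with 1000 or more UMIs in Macro-M2 26.6% reached 1.5-fold, with a median of 1.35. C5ar2, with 489 UMIs, was below that limit and is not read against these genes.

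Part of the cell make-up of the pools moved with the same split. Malign_1 cells, a label found short-term only in T127, made up 9.67 to 10.9% of each of pools 1 to 4 and 3.32 to 4.61% of each of pools 5 to 8. Malign_2 cells, found short-term only in T22, made up 6.00 to 6.93% and 3.73 to 4.64%, and B cells 0.152 to 0.811% and 1.62 to 2.50%. CD4_Tcm-TCF7 (2.31 to 4.28% and 4.69 to 6.77%) and CD14-IL1B (0.780 to 1.67% and 1.85 to 2.64%) were also lower in each of pools 1 to 4. The same held for CD8_Tn-CCR7, Tgd and pDC. The other malignant label of each model did not separate the pools, with Malign_0 of T127 at 9.87 to 10.9% and 10.6 to 12.3% and Malign_3 of T22 at 3.26 to 3.88% and 2.67 to 3.87%. The tumors and treatments behind this split cannot be told apart from the pools, and their part in the C5ar1 levels was not tested. With pools 1 to 3, which share barcodes, left out, the Macro-M2 level of C5ar1 was 215 CPM.

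**Figure D3:**
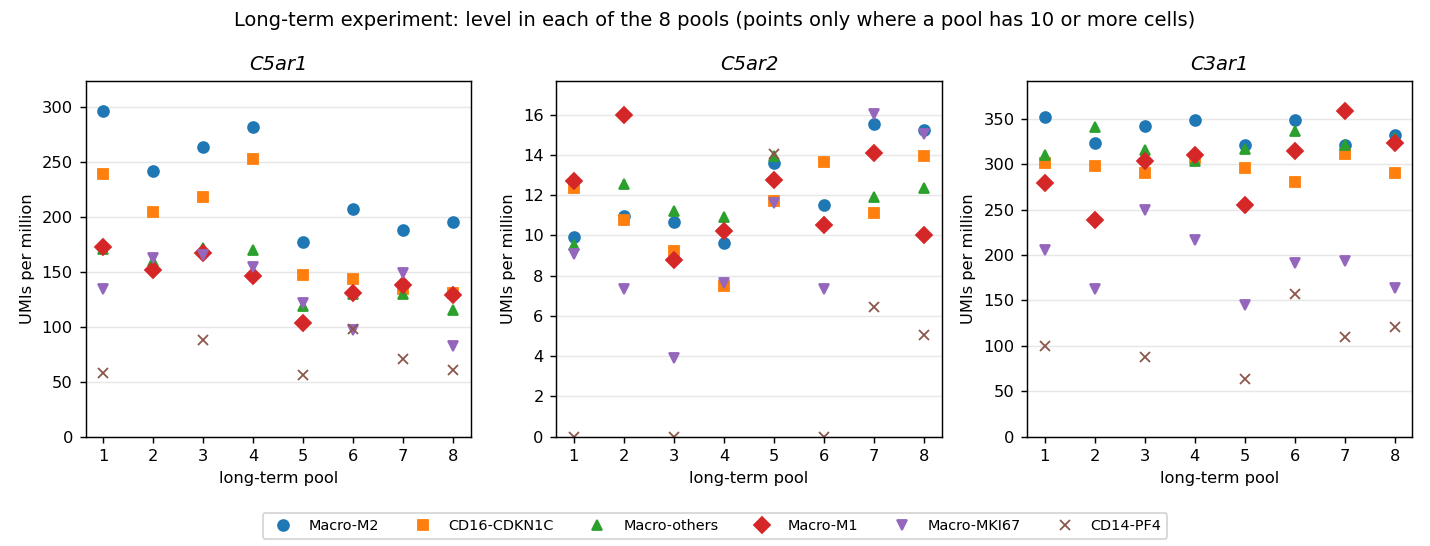
Level of the 3 receptors (CPM, vertical axes from 0) in each of the 8 long-term pools, for 6 labels. Each point is 1 pool. C5ar1 in Macro-M2 lies at 241 to 296 in pools 1 to 4 and 177 to 207 in pools 5 to 8, while C3ar1 stays between 321 and 352.

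C3ar1 was detected in a larger share of cells with a C5ar1 UMI than of cells without one in each of the monocyte and macrophage labels with 50 or more cells except T22 CD14-PF4. After thinning, 65.6% of long-term Macro-M2 cells with a C5ar1 UMI (63.1 to 68.0%) also had a C3ar1 UMI, against 50.0% of those without (47.7 to 52.2%). In T22 the shares were 61.7% and 51.8%, with intervals that overlapped (54.6 to 68.4% and 47.2 to 56.4%) and a gap of 9.88 percentage points that was 3.83 without pool 4, and in T127 69.5% and 50.7%. In CD16-CDKN1C cells they were 57.8% and 46.3% long-term, 54.0% and 42.3% in T22, and 70.2% and 43.0% in T127.

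The widest gaps were in labels with few positive cells. In CD14-IL1B cells of T22, 7 of the 8 C5ar1-positive cells had C3ar1 (87.5%, interval 47.3 to 99.7%), against 4.44% of the 135 others. The exception was CD14-PF4 in T22, in which 1 of 20 C5ar1-positive cells had C3ar1 (5.00%, 0.127 to 24.9%), against 15.2% of the rest (6.34 to 28.9%). Of the 143 CD14-IL1B cells of T22, 108 had 3 or more dendritic genes, and both receptors were low in such cells. A label that mixes such cells with others can show joint detection. The part of this mix in the gaps of CD14-IL1B and other labels was not tested.

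In T22 CD14-PF4 the 31 cells with 3 or more classical monocyte genes had 126 CPM of C5ar1 (87.0 to 176) and 18.5 CPM of C3ar1 (6.00 to 43.1). The other 35 cells had 90.5 CPM of C5ar1 and 150.2 CPM of C3ar1 (118 to 189). In T22 Macro-M2, 65 cells with these genes had 207 CPM of C5ar1 and 120.5 CPM of C3ar1, and the other 605 cells 148 and 366 CPM. In both T22 labels the cells with monocyte genes had less C3ar1 than the other cells, and in T127 the values were not ordered in the same way in both labels. In T127 Macro-M2 the cells with these genes had 349 CPM of C3ar1 against 369.9 CPM in the others, and in T127 CD14-PF4 they had 137 CPM against 47.3 CPM.

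**Figure D4:**
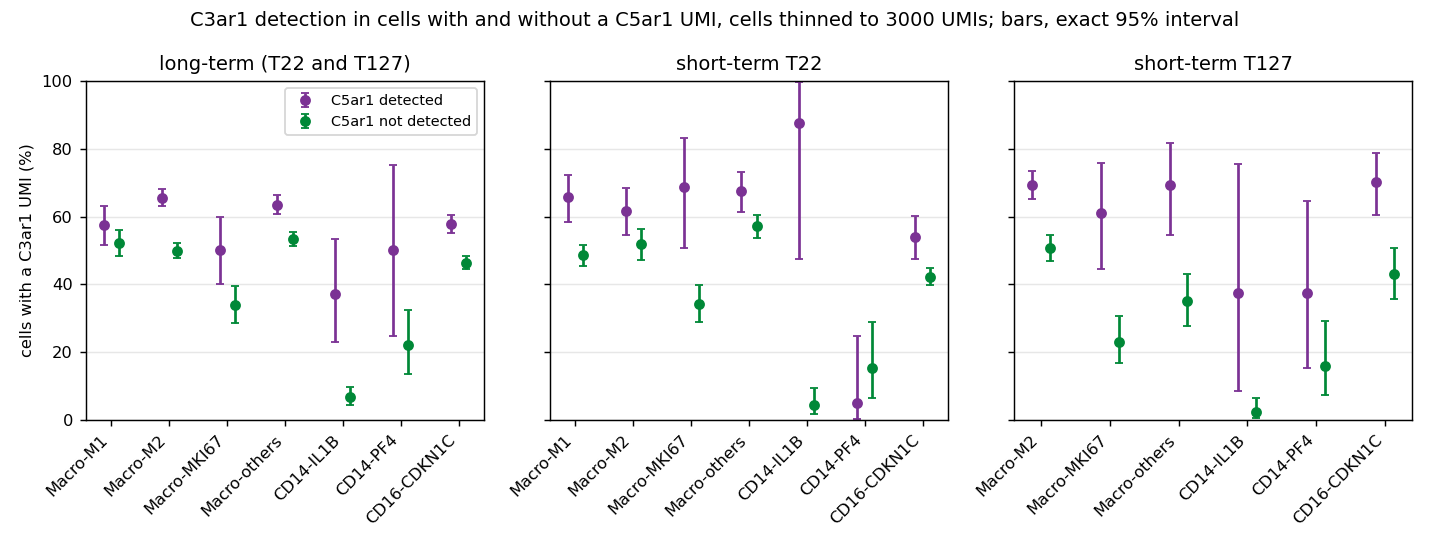
Share of cells with a C3ar1 UMI (percent) among cells with (purple) and without (green) a C5ar1 UMI, by label and experiment, in cells thinned to 3000 UMIs. Bars are exact 95% binomial intervals that cover counting error only. The purple point lies above the green one in every label except T22 CD14-PF4, at 5.00% and 15.2%.

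A list of 27 monocyte and macrophage genes was then compared between Macro-M2 cells with only C5ar1 and cells with only C3ar1 detected, 511 and 1012 cells long-term, 77 and 243 in T22, and 150 and 346 in T127. The receptors divided the cells, and the listed genes are not independent of them, since all were counted in the same thinned cells. Pools of an experiment may hold cells of the same tumors, so the counts of pools below are not counts of independent samples. Of the 27 genes 12, 8 and 4 were higher with C5ar1 alone by 0.32 or more on the log2 scale in the long-term, T22 and T127 cells, and 11, 12 and 13 were lower by as much. The share of all genes beyond this margin was not counted. The median ratios were 0.929, 0.804 and 0.761.

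Cd14, Il1b and Vcan were on the C5ar1 side. Cd14, the lipopolysaccharide co-receptor, was higher with C5ar1 alone in 16 of 16 pools, by 1.31-fold long-term (1.253 to 1.36), 2.24-fold in T22 (2.01 to 2.49) and 1.21-fold in T127 (1.14 to 1.29). Il1b, the interleukin-1 beta gene, was higher by 1.26-fold, 2.19-fold and 1.28-fold, in 13 of 16 pools. Vcan, which encodes versican and marks classical monocytes, was higher by 1.94-fold, 2.89-fold and 1.66-fold, in 12 of 16 pools, and the T22 ratio rested on 11 and 12 UMIs. The other classical monocyte genes did not all take that side in each experiment. Plac8 had ratios of 1.247, 6.59 and 1.74 and was higher in 12 of 16 pools, Ccr2 had 1.28, 2.13 and 0.942 and was higher in 10 of 16, and Ly6c2 had 0.494, 3.50 and 0.943 and was higher in 9 of 16.

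Several of the listed genes were on the C3ar1 side. Apoe, C1qa, Csf1r, Cd74, H2-Aa, Trem2 and Cx3cr1 were lower with C5ar1 alone in 16 of 16 pools, and H2-Ab1 in 15 of 16. H2-Eb1, a further class II gene, was lower in 9 and higher in 7 of the 16 pools, with ratios of 0.873, 0.942 and 1.14. For Apoe, which encodes the lipid carrier apolipoprotein E, the ratios were 0.702, 0.582 and 0.339 in the 3 experiments. For C1qa, a subunit of the complement component C1q, they were 0.791, 0.562 and 0.395. For Trem2, a lipid-sensing receptor, they were 0.635, 0.447 and 0.567.

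Markers of alternative activation did not take one side. Mrc1 was higher with C5ar1 alone long-term (1.54, in 8 of 8 pools) and in T22 (1.73, in 3 of 4 pools), but lower in T127 (0.663, in 4 of 4 pools). Arg1, the arginase gene, had a ratio of 2.69 long-term and 0.827 in T127, and no UMI in either T22 group. Spp1, which encodes osteopontin, had 2.30, 1.00 and 1.053. The long-term groups mixed cells of both models, and short-term Macro-M2 cells of T127 had more C5ar1 and more Mrc1 than those of T22. The part of the model mix in the long-term ratios was not tested. When all C5ar1-positive cells were compared with all C5ar1-negative ones, 4 genes were higher by that margin in each experiment, and these were Folr2, Il10, Maf and Mrc1, while 10 were for C3ar1, namely Apoe, C1qa, Csf1r, Cx3cr1, Fcgr1, Folr2, Il10, Maf, Siglec1 and Trem2. Of the 27 genes 3, 1 and 6 were lower by that margin for C5ar1 long-term, in T22 and in T127, and 6, 4 and 5 for C3ar1. None was lower in each experiment. The share of all genes beyond the margin was not counted, so the 2 receptors are not ranked by these counts.

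**Figure D5:**
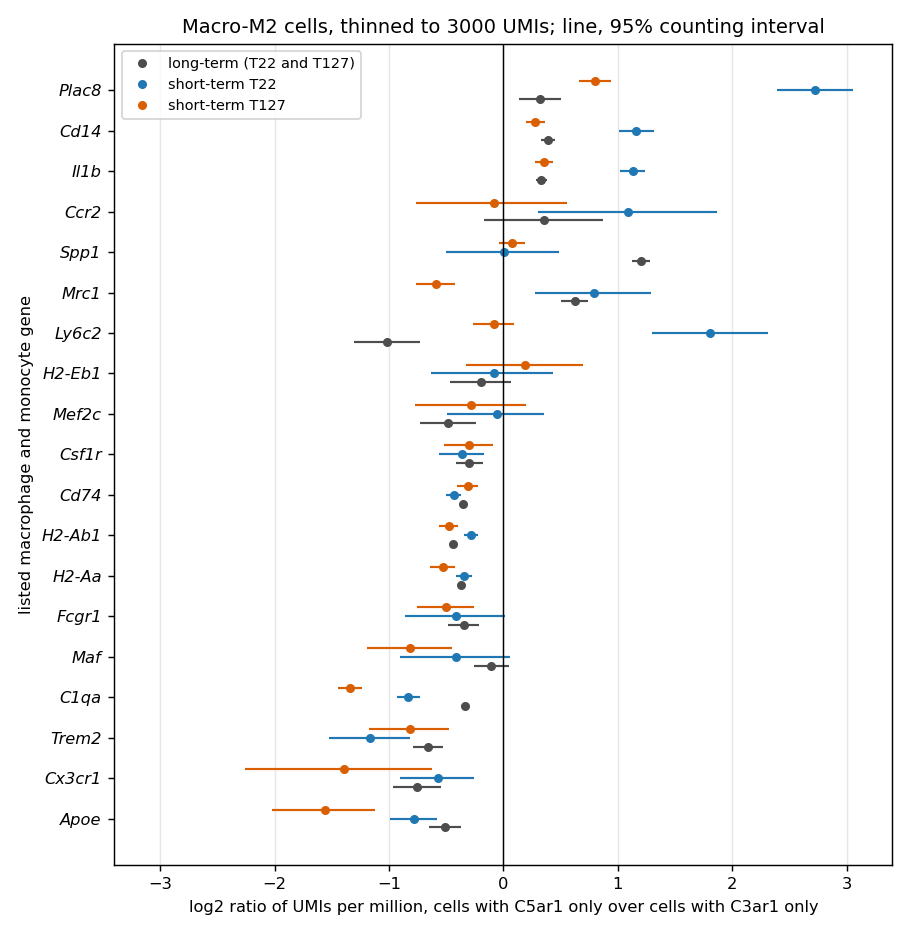
Log2 ratio of CPM between Macro-M2 cells with only C5ar1 and cells with only C3ar1 detected, for the 19 listed genes with 50 or more UMIs in the 2 groups in each experiment. Points are ratios and lines 95% counting intervals. Cd14 lies to the right of 0 and Apoe, C1qa and Trem2 to the left in all 3 experiments, and Mrc1 lies to the right long-term and in T22 and to the left in T127.

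Genes with a pattern like that of the receptors were sought over the 22 long-term labels, by Pearson's r of log2(CPM + 1) among 13407 other genes. The labels come from the same libraries and fall into myeloid and other cells, and likeness among the myeloid labels alone was not computed. Nearest to C5ar1 were Csf1r (r = 0.979), C1qb, Ccl12, C1qc and Gm35154, and nearest to C3ar1 were Msr1 (r = 0.980), Cd300c2, Igsf6, Fcgr1 and Rnf180. C5ar2 was nearest to Fcgr4 (r = 0.960), followed by Kcnj10, Dppa3, Slamf8 and Rnf180. Of the receptors themselves, C5ar1 and C3ar1 had r = 0.958, which placed C3ar1 at rank 29 for C5ar1. C5ar1 and C5ar2 had r = 0.925, and C5ar2 and C3ar1 r = 0.912.

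The ligand precursors were highest in other cells than the receptors. C3, the precursor of C3a, was highest in i_CAF fibroblasts in each experiment, with 438 CPM long-term (pools 257 to 572), 163 CPM in T22 (pools 114 to 218) and 488 CPM in T127 (pools 377 to 577). Among the monocyte and macrophage labels C3 reached 37.1 CPM in long-term CD14-PF4, 115 CPM in T22 CD14-PF4 and 134 CPM in T127 CD16-CDKN1C. In Macro-M2 it was 26.4 CPM long-term, 53.3 CPM in T22 and 110.2 CPM in T127. There T127 was 2.07-fold above T22 (1.87 to 2.30), and pools of 105 to 117 CPM did not overlap with pools of 46.4 to 59.5 CPM. Hc, which encodes C5, did not exceed 9.44 CPM in any label, the T22 value of i_CAF. In T127 it was 1.04 CPM in i_CAF (pools 0 to 3.97) and 0.805 CPM in CD14-IL1B.

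Rps19, a ribosomal protein gene whose product has been described as a C5ar1 ligand, was highest in T cell labels (3134 CPM in long-term CD8_Tn-CCR7). Of 4 genes for enzymes that trim anaphylatoxins none reached 50 CPM in a monocyte or macrophage label. Cpm, which encodes carboxypeptidase M and is named after its values were seen, was highest in my_CAF in the long-term and T22 cells, with 43.1 and 86.9 CPM.

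Of 8 other complement receptor genes, 6 reached 50 CPM in a monocyte or macrophage label in each experiment. In Macro-M2 7 were counted, and 3 of 7 were at least 2-fold higher in T127 and 1 of 7 at least 2-fold lower, against 8.42% and 7.59% of all genes counted in that label. Itgam, the alpha chain of complement receptor 3, was higher by 2.29-fold (2.19 to 2.39) and Cd93 by 3.28-fold (2.93 to 3.68), and Itgax, the alpha chain of complement receptor 4, had a ratio of 0.340. None of these 3 had overlapping pools. The remaining one that was higher was Vsig4, the receptor CRIg, which is named after its values were seen and had no UMI in T22 and 5.83 CPM in T127. Its T127 pools ran from 0 to 22.4 CPM and overlapped with T22, so that its count as higher rests on 1 pool.

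Of 10 other chemoattractant receptors, 8 were counted in Macro-M2, and 2 were at least 2-fold higher and 2 at least 2-fold lower in T127, beside the same 8.42% and 7.59% of all genes. Ltb4r1, the leukotriene B4 receptor, was higher by 3.93-fold (3.55 to 4.37), and Fpr1, the formyl peptide receptor, named after its values were seen, by 2.30-fold (1.85 to 2.87). Cx3cr1, the fractalkine receptor, had a ratio of 0.150 and Ptafr, the receptor for platelet-activating factor, 0.438. Set beside these, the C5ar1 ratio of 1.31 and the C3ar1 ratio of 1.06 in the same cells were small.

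Of 8 signalling partners of the receptors, all were counted in Macro-M2 and 1 was at least 2-fold higher in T127, with none 2-fold lower. A count of 1 in 8 is near the 8.42% of all genes that were higher, and 7.59% were lower. That gene was Gnai3, an inhibitory G protein subunit, with a ratio of 2.13 (1.95 to 2.33). Gnai2, the more abundant inhibitory subunit of immune cells, had 1.08, and Grk2, a kinase that phosphorylates activated receptors, 1.03. The lists' median ratios were 1.06 for complement receptors, 1.049 for chemoattractant receptors and 1.06 for signalling partners, and the median over all genes counted in Macro-M2 was 1.04.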

How the data were processed

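Cells came from mammary tumors of 16 pools, 8 long-term and 4 short-term for each model. The deposited tables hold raw UMI counts per cell and gene, which the authors made with Cell Ranger 6.0.0 on the mouse build GRCm38 with intronic reads included, and a table of cell labels. GEO's organism field names another species than the genes do. The deposited cells had 402 or more genes and at most 9.99% mitochondrial UMIs, and 8635 of 53946 had fewer than 1000 genes. Doublets had been removed by the authors with Scrublet and no caller was run here.

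Counts of the 3 genes were summed per label, pool and experiment and divided by the label's UMIs. Intervals are exact Poisson, exact binomial (Clopper-Pearson) or conditional binomial at 95% and cover counting error only. Cells were thinned without replacement to 3000 UMIs for shares, with shallower cells left out. Genes were counted between models with 50 or more UMIs in a label. Log2 values used a pseudocount of 1 CPM and genes with 200 or more UMIs. The alternatives were other filters on cells, another denominator, other thinning, each pool left out and other measures of likeness. The members and lists were chosen with earlier results of these data known. The named genes were the receptors, the 5 genes nearest to each, the pathway genes at 50 CPM or more in a monocyte or macrophage label and the ligands, and the 27 macrophage genes. The calculations were tested on simulated data (pandas 2.3.3 and scipy 1.17.1 under Python 3.11.15).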

Additional observations from a re-analysis of the deposited data

Results flagged for a closer look

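Among 60 groups of 4 to 8 pools (3 receptors by label and experiment), 2 held a pool far from the others by Dixon's criterion, and chance flags about 1 group in 20. In short-term T22 CD14-PF4 cells, C5ar1 was 68.2 CPM in pool 4 and 120.6 to 126.8 CPM in the other 3 pools, a gap of 0.896 of the whole range. In short-term T127 CD14-IL1B cells, C5ar2 was 1.62 CPM in pool 1, from a single UMI, and 0 in the other 3 pools.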

How the results depend on the processing

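Over 161 values and 1477 alternatives, 1245 stayed within 1 SD of the pools, or within 1.5-fold for the counts of shared likeness genes. Another 231 moved beyond these margins, and 1 ratio of at least 2-fold turned direction. In small labels 1 SD was as wide as the value itself, and staying within it says little there. For the C5ar1 ratio of 0.692 in CD14-IL1B it was 1.03, so that 0.296 without cells with dendritic genes counted as unmoved. Of 470 values under a filter on cells, 146 could not move because no cell of the label was left out, among them the short-term Macro-M2 levels with cells of under 1000 genes or 3000 UMIs or the deepest 5% left out, and these say nothing of stability. Leaving out each pool in turn kept 576 of 576 within 1 SD of the pools, a margin that leaving out a single pool could hardly exceed. These 576 are part of the 1245 and say little of stability. Values that still moved by over 1.5-fold included T127 CD14-IL1B without pool 1, to 4.29 CPM of C5ar1, 11.3 CPM of C3ar1 and 0 of C5ar2 and to ratios of T127 to T22 of 0.273 for C5ar1 and 0.464 for C3ar1, C5ar2 in T127 Macro-others without pool 2, to 2.88 CPM and a ratio of 0.104, C5ar2 in T22 CD14-IL1B without pool 3, to 0.960 CPM, and the C3ar1 detection gap in T22 Macro-M2 without pool 4, from 9.88 to 3.83 points. Cells thinned to 3000 UMIs turned the C5ar2 ratio of T127 to T22 in Macro-MKI67 to 1.11, from 10 and 15 UMIs, and in Macro-M2 moved the ratio of C5ar1 to 1.41 and of C5ar2 to 1.296 (0.906 without thinning, pools overlapping in the reported comparison). Other ratios with overlapping pools also crossed 1, namely C3ar1 in CD14-PF4 from 0.773 to 2.00 and in CD14-IL1B from 0.8287 to 1.19 with thinning, and to 1.27 in CD14-IL1B with the deepest 5% of cells left out. With 1 pool left out, C3ar1 in CD14-IL1B reached 1.02 (without pool 3 of either model), C5ar1 in CD14-PF4 1.07 (pool 3 of T127), C5ar2 in CD16-CDKN1C 0.967 (pool 3 of T127) and C3ar1 in Macro-M2 0.992 (pool 1 of T22). Without mitochondrial and ribosomal protein genes in the denominator, which is smaller by construction, the Macro-M2 levels were 279 CPM of C5ar1 and 403 CPM of C3ar1 long-term, 188, 25.3 and 423 CPM of C5ar1, C5ar2 and C3ar1 in T22, and 229.8 and 416 CPM of C5ar1 and C3ar1 in T127, the C5ar1 ratio was 1.22 and the C3ar1 ratio 0.983 (1.06 as reported). In alternatives chosen after seeing the data, pools 1 to 3, cells with 3 or more dendritic genes or cells with 3 or more classical monocyte genes were left out, and the last moved C5ar1 in T127 Macro-M2 to 185 CPM. The last also changed the CD14-PF4 ratios of T127 to T22 to 0.570 for C5ar1, 0.0950 for C5ar2 and 0.315 for C3ar1 (0.879, 0.416 and 0.773 with these cells). Of these only the C3ar1 ratio passed the margin of 1 SD. Leaving out cells with dendritic genes changed the CD14-IL1B ratios to 0.296, 0.0590 and 0.407 for C5ar1, C5ar2 and C3ar1, each within 1 SD. Its levels became 74.7, 13.9 and 101 CPM in T22 and 22.1, 0.819 and 41.0 CPM in T127, in the same order.

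Shares of Macro-M2 cells follow the depth. Without thinning, at 1000 UMIs, and at 3000 UMIs with 2 or more UMIs required, they were 71.8, 20.8 and 17.8% for C5ar1, 11.5, 1.15 and 0.228% for C5ar2, and 84.4, 27.3 and 28.1% for C3ar1 long-term. In T22 they were 55.8, 12.5 and 11.2% for C5ar1, 20.3, 1.79 and 0.448% for C5ar2, and 77.2, 25.8 and 27.9% for C3ar1. In T127 they were 72.6, 18.4 and 16.2% for C5ar1, 17.3, 1.62 and 0.256% for C5ar2, and 82.7, 29.1 and 31.5% for C3ar1. The genes most like each receptor depended on the measure. Of the 5 named for C5ar1, 2 were shared with a pseudocount of 10 CPM, 0 with Spearman's rho, 0 over the T22 labels and 0 over the T127 labels. The counts were 1, 2, 0 and 0 for C5ar2 and 2, 2, 0 and 1 for C3ar1. The cause was not tested.

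No paired analysis was possible because no test was run and pool numbers tie no samples of different groups. C5ar2 rests on few UMIs, 15 in T127 Macro-others and 1 in T127 CD14-IL1B, so its levels in such small labels are the least precise values given here. Model and library cannot be told apart, and intervals leave out the spread between tumors.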
